A study of Mus musculus with 6 samples.

Results

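The Rab GTPases are the largest branch of the Ras superfamily. Each one cycles between a GTP-bound form on the membrane of a particular organelle and a GDP-bound form in the cytosol, and in the GTP-bound form it recruits the effectors that move, tether and fuse vesicles. Guanine nucleotide exchange factors (GEFs) load GTP, GTPase-activating proteins (GAPs) speed its hydrolysis, and escort proteins and GDP dissociation inhibitors handle the prenylated protein. In the intestinal epithelium, Rabs serve granule release by Paneth and goblet cells, apical delivery and recycling in absorptive cells, and endocytic traffic to the lysosome.

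The members were the genes whose symbol in the array annotation is Rab followed by a number, with at most 1 further letter and 1 further digit, which leaves out effectors and regulators. This gave 56 genes of 19505 measured with a gene symbol, each read by 1 probe set. They were sorted by the transport step with which each is mainly associated, and several act at more than 1 step: 12 in exocytosis and secretory granules, 14 at the endoplasmic reticulum (ER) and Golgi, 8 in recycling, 7 at the early endosome, 11 at the late endosome, lysosome and related organelles, and 4 in a class that joins cilium-associated Rabs with the Rab40 proteins.

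Total RNA of small intestinal crypts from C57BL/6 mice was hybridised to Affymetrix arrays, 1 array per sample, with 3 samples of CSN8ΔIEC mice and 3 of CSN8fl/fl mice. CSN8fl/fl mice carry loxP-flanked Cops8, which encodes subunit 8 of the COP9 signalosome, the enzyme complex that removes NEDD8 from cullin ubiquitin ligases. CSN8ΔIEC names deletion of that gene in intestinal epithelial cells, and what drives the deletion is not stated in the labels. In both genotypes, replicates 1 and 2 are labelled as females aged 16 weeks and replicate 3 as a male aged 10 weeks. The samples are titled as biological replicates, but whether each came from a mouse of its own is not stated, so p-values measure only how these samples vary, and some of that variation may be technical.

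Values are log2 signals after the authors' RMA, and unless stated otherwise differences are CSN8ΔIEC minus CSN8fl/fl on the log2 scale ± SE, with adjusted p-values from limma over all genes and a threshold of 0.05. Signals of different probe sets have no common scale, so levels were compared between samples and not between genes. Cops8 read 7.68, 7.61 and 7.77 in CSN8ΔIEC crypts, against 8.26, 8.22 and 8.10 in CSN8fl/fl crypts (difference −0.50 ± 0.11, adjusted p = 0.0865); where its probes lie relative to the deleted part is not known. Libraries correlated at 0.976 to 0.993 across all probe sets, and the lowest of these values involved CSN8fl/fl replicate 3. Sex labels and Y-linked signals went opposite ways: Kdm5d, Eif2s3y and Uty were at 2.81 to 4.06 in both libraries labelled male and at 7.50 to 10.1 in the 4 labelled female. The genotype comparison does not use the sex label. The epithelial markers, among them Epcam and Cdh1, averaged 11.9 to 12.0 in every library of both genotypes, and markers of stroma, muscle and endothelium averaged 5.68 to 6.03 in CSN8ΔIEC crypts and 5.66 to 5.74 in CSN8fl/fl crypts. Of those 10 markers 1 rose, the smooth muscle actin gene Acta2 (0.66, adjusted p = 0.0366), and 3, Acta2 included, had every CSN8ΔIEC value above every CSN8fl/fl value. In 1, the muscle gene Des, every CSN8ΔIEC value lay below (−0.49, adjusted p = 0.113), on signals under 5 in all 6 libraries.

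Rab27a was the only Rab gene past the threshold, and the Rab27 effector genes Myrip, Sytl2 and Mlph, described below, also passed. With any 1 library left out, Rab27a, Sytl2 and Mlph did not pass. Promoter windows are shown for Rab27a and for Mlph. No window was listed for Sytl2, and Myrip was not examined for motifs on its own. The windows are RefSeq sequence of build GRCm38.p6 from 250 bases before to 50 bases after an annotated transcript start. Capitals mark matches, on either strand, to 3 motifs: CACGTG, an E-box read by factors of the MITF and TFE family, CATATG, an E-box form bound by MIST1, a transcription factor of exocrine secretory cells, and TGACNNNGC, the core of the antioxidant response element. The first Rab27a window lies on the plus strand at chr9:73044560-73044859, the second, for another annotated start, on the plus strand at chr9:73063898-73064197, and that of Mlph on the plus strand at chr1:90914850-90915149.
Rab27a, window 1: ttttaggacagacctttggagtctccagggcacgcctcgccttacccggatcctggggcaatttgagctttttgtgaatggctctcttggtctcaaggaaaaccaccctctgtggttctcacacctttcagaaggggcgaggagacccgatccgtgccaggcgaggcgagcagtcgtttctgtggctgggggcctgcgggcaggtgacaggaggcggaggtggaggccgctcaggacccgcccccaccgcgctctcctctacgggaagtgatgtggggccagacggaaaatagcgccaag
Rab27a, window 2: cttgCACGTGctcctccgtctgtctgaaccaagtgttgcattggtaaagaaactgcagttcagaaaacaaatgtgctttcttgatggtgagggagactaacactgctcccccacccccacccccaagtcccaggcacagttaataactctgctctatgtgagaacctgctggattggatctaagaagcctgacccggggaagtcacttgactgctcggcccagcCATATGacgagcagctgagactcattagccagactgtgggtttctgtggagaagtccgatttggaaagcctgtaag
Mlph: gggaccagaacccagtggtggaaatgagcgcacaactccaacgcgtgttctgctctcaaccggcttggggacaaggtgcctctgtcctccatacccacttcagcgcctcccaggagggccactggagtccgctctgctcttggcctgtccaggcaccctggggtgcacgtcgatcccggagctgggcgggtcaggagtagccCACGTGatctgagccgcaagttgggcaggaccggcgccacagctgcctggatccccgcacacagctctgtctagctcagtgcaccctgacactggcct
The second Rab27a window held CACGTG with its first base at −246 from the transcript start and CATATG at −26, the Mlph window held CACGTG at −48, and the first Rab27a window held none of the 3. The window of Rab17, a neighbour of Mlph that is not printed here, also held none. Over all 32851 windows of that table, 7.15% held CACGTG, 3.91% CATATG and 12.4% TGACNNNGC. Of the 56 members, 47 had at least 1 window there, 59 windows in all, of which 6 held CACGTG (Rab5a, Rab20, Rab21, Rab23, Rab24 and Rab27a), 1 held CATATG and 9 held TGACNNNGC. The second Rab27a window was the only 1 of the 59 with CATATG. The motifs were chosen after the values were seen. These matches are letters in a window and say nothing of occupancy in crypts.

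Of the 56 Rab genes, 1 fell in CSN8ΔIEC crypts, Rab27a, and 0 rose. That is 1.79% of the members, where 1.08% of all genes passed in either direction, 0.702% fell and 0.374% rose. At an unadjusted p under 0.05 there were 5 members, Rab27a, Rab37, Rab12, Rab17 and Rab3d, or 8.93%, against 15% of all genes. The CSN8ΔIEC values all lay below the CSN8fl/fl values for 6 members (10.7% of the members, against 11.7% of all genes) and all above them for 2 (3.57%, against 10.7%). Together these 8 are 14.3% of the family, where 22.4% of all genes had groups that did not overlap. The median difference was −0.050 over the Rab genes and −0.011 over all genes, and 62.5% of the members had a difference below 0, against 51.8% of all genes. The called member is a single gene, and the shares of members with separated groups or with a small unadjusted p lay below those of all genes.

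**Figure D1:**
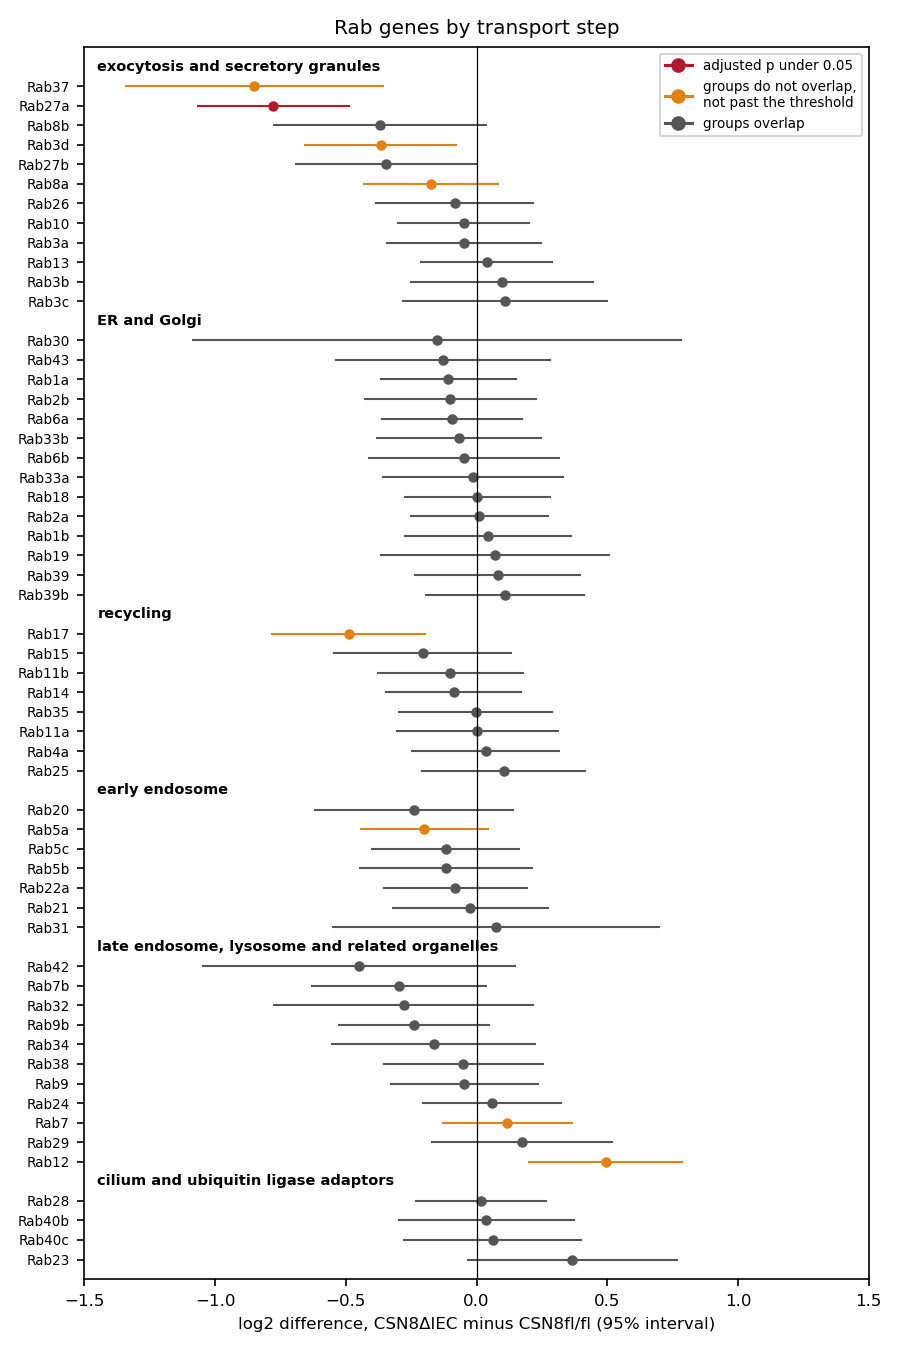
Log2 difference, CSN8ΔIEC minus CSN8fl/fl, of each of the 56 Rab genes (points) with its 95% interval from limma (lines; 3 samples per genotype), by transport step. Rab27a, in red, is the member past the threshold, the 7 members in orange have groups that do not overlap without passing it, and the intervals of 52 members lie within a 2-fold change in either direction.

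The fit bounded most of the family, but a 2-fold bound still admits a change as large as the 1.71-fold fall of Rab27a. For 52 of the 56 genes the 95% interval of the difference lay within 2-fold in either direction, and for 42 it lay within 1.5-fold. Outside the 2-fold bound were Rab27a, Rab37, Rab30 and Rab42. Signals were dim for 6 members, Rab39, Rab6b, Rab7b, Rab9b, Rab34 and Rab38, which were under 5 on more than 3 of the 6 arrays, and 50 passed that filter.

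Among the Rabs of exocytosis and secretory granules, Rab27a, which docks secretory granules and melanosomes at the cell cortex, fell 1.71-fold. It read 8.81, 8.84 and 8.97 in CSN8ΔIEC crypts, against 9.60, 9.52 and 9.83 in CSN8fl/fl crypts. The groups were well apart, with means of 8.87 ± 0.088 in CSN8ΔIEC and 9.65 ± 0.16 in CSN8fl/fl (SD, n = 3 each). The difference was −0.78 ± 0.13, with a 95% interval of −1.07 to −0.49 (adjusted p = 0.0284). It was −0.74 between the libraries labelled female and −0.86 between the 2 labelled male. With any 1 of the 6 libraries left out, the difference stayed between −0.84 and −0.69 but did not pass the threshold, with adjusted p-values from 0.0545 without CSN8fl/fl replicate 1 to 0.139 without CSN8ΔIEC replicate 1.

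Its closest relative Rab27b, which acts in granule release from platelets and exocrine glands, read 9.71, 9.85 and 9.64 in CSN8ΔIEC crypts, against 9.84, 10.05 and 10.36 in CSN8fl/fl crypts. The groups overlapped through CSN8ΔIEC replicate 2 and CSN8fl/fl replicate 1, and the difference of −0.34 ± 0.15 did not pass (adjusted p = 0.336). Its 95% interval of −0.69 to 0.0019 overlapped that of Rab27a, and no test was made of Rab27a against Rab27b. Rab3d, found on zymogen and other exocrine granules, read 8.59, 8.35 and 8.69 in CSN8ΔIEC crypts, against 8.89, 8.87 and 8.97 in CSN8fl/fl crypts. Every CSN8ΔIEC value was lower, with a difference of −0.37 ± 0.13 that did not pass (adjusted p = 0.23). Rab26, another Rab of exocrine granules, showed no such separation, at 6.39, 6.29 and 6.61 in CSN8ΔIEC crypts, against 6.38, 6.60 and 6.56 in CSN8fl/fl crypts (adjusted p = 0.804).

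Rab37, a Rab of mast cell and other secretory granules, had the largest difference in the family, −0.85 ± 0.22, without passing the threshold (adjusted p = 0.117). It read 4.42, 4.73 and 4.66 in CSN8ΔIEC crypts, against 5.06, 5.33 and 5.96 in CSN8fl/fl crypts. The 3 CSN8ΔIEC signals and no CSN8fl/fl signal were under 5, and without CSN8fl/fl replicate 3, the highest library, the difference was −0.60. Of the 8 measured markers of myeloid and mast cells 0 passed. Among the mast cell protease genes of that list, Mcpt1 averaged 5.68 in CSN8ΔIEC and 5.26 in CSN8fl/fl and Mcpt2 averaged 6.13 in CSN8ΔIEC and 5.79 in CSN8fl/fl (adjusted p = 0.568 and 0.444). Cpa3 and Cma1 were dim in both genotypes and differed by 0.031 and −0.43 (adjusted p = 0.936 and 0.285). In that list 2 genes, Cma1 and Lyz2 (−0.72, adjusted p = 0.226), had every CSN8ΔIEC value below every CSN8fl/fl value, and 0 had every value above. Lyz2 and its relative Lyz1, a Paneth cell marker, were both lowest in CSN8ΔIEC replicate 2 (11.35 and 12.41). Both were highest in CSN8fl/fl replicate 1 (12.91 and 13.66), and which cells gave the Lyz2 signal was not tested. The part of myeloid and mast cells in the Rab37 signal was not tested either.

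Rab8a, which serves apical delivery in enterocytes, read 11.57, 11.58 and 11.43 in CSN8ΔIEC crypts, against 11.64, 11.76 and 11.70 in CSN8fl/fl crypts. Its groups did not overlap, but the difference was small, −0.17 ± 0.11 (adjusted p = 0.505). The paralogue Rab8b differed by −0.37 ± 0.18 with overlapping groups (adjusted p = 0.381). Rab10, which works beside Rab8 in membrane delivery, differed by −0.049 and Rab13, a Rab of junctional traffic, by 0.040 (adjusted p = 0.864 and 0.892). The neuronal and endocrine Rabs Rab3a, Rab3b and Rab3c differed by −0.048, 0.098 and 0.11, with adjusted p-values of 0.802 to 0.89. The median of the 12 exocytic Rabs was −0.13, and 9 of their differences lay below 0.

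**Figure D2:**
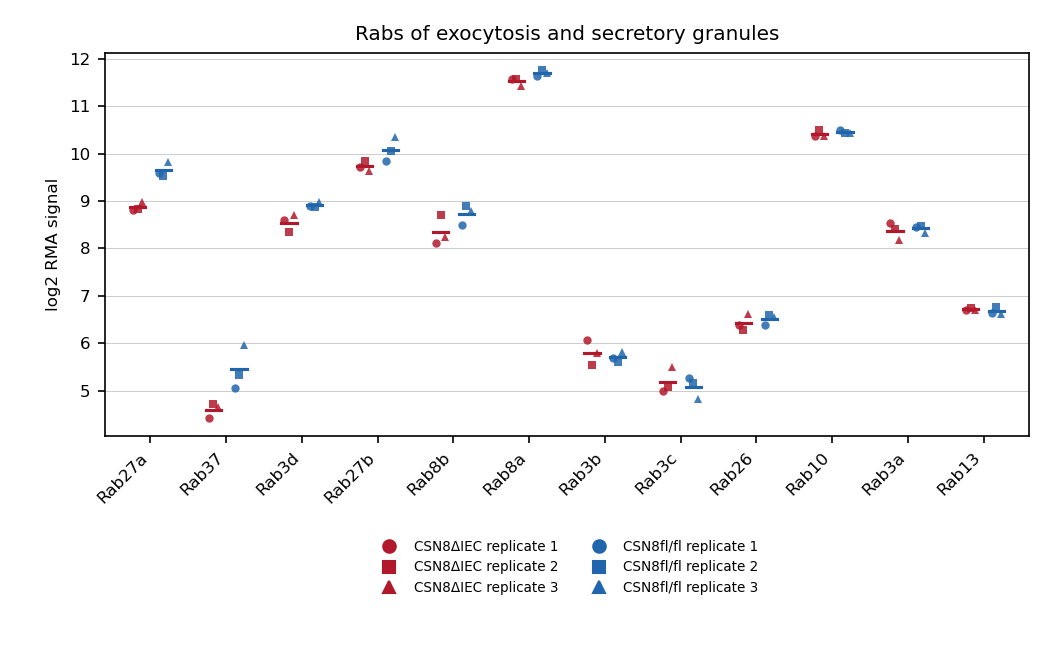
Log2 RMA signal of the 12 Rabs of exocytosis and secretory granules in each library (symbols by replicate; bars are group means, n = 3), CSN8ΔIEC left of CSN8fl/fl for each gene and genes ordered by p. Rab27a, Rab37, Rab3d and Rab8a have every CSN8ΔIEC value below every CSN8fl/fl value, and the other 8 genes overlap.

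The wider Rab machinery was read from a list of 121 genes of GEFs, GAPs, escort and prenylation factors, and effectors, of which 110 were measured. Of these 3 fell and 0 rose, Myrip, Sytl2 and Mlph, all among the 42 effectors and all encoding proteins that bind Rab27; over all genes 0.702% fell and 0.374% rose. Of the effectors, 9 were grouped as Rab27 effectors after their values were seen: the synaptotagmin-like Sytl1 to Sytl5, Myrip, Mlph, Unc13d and Exph5. Rph3a and Rph3al, whose products also bind Rab27, were not put in this group and are counted among the other effectors. They differed by −0.027 and −0.043 with overlapping groups (adjusted p = 0.952 and 0.929). In 5 of the 9 every CSN8ΔIEC value lay below every CSN8fl/fl value and in 1, Unc13d, above, where 11.7% of all genes lay below and 10.7% above. Their median difference was −0.36. Since the 9 were grouped with their values known, these counts are a description. In the other 33 effectors 0 passed, 7 had all CSN8ΔIEC values below the CSN8fl/fl values and 0 above, and the median was −0.093. No test was made of one set against the other.

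Myrip, which encodes the effector MyRIP that links Rab27a on granules to myosins, read 3.62, 3.20 and 3.70 in CSN8ΔIEC crypts, against 4.67, 4.84 and 5.09 in CSN8fl/fl crypts. The difference of −1.36 ± 0.17 passed (adjusted p = 0.0106), on signals that were under 5 in 5 of the 6 libraries. Leaving out CSN8ΔIEC replicate 1 ended the call (adjusted p = 0.0503), and leaving out any other library did not. Sytl2, whose product binds Rab27a and membrane phospholipids during granule docking, read 8.65, 8.36 and 8.63 in CSN8ΔIEC crypts, against 9.25, 9.16 and 9.42 in CSN8fl/fl crypts. Its difference was −0.73 ± 0.13 (adjusted p = 0.0419). Mlph, which encodes melanophilin, the link between Rab27a and myosin Va in mouse melanocytes, read 7.24, 7.08 and 7.46 in CSN8ΔIEC crypts, against 8.05, 7.99 and 8.55 in CSN8fl/fl crypts. Its difference was −0.94 ± 0.18 (adjusted p = 0.0476). Like Rab27a, Sytl2 and Mlph kept their direction with any 1 library left out and did not pass, with adjusted p-values of 0.0713 to 0.133 for Sytl2 and 0.0622 to 0.181 for Mlph. With arrays centred on their medians neither passed (adjusted p = 0.0501 for Sytl2 and 0.051 for Mlph).

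Of the remaining genes in the group of 9, Sytl5 differed by −0.53, Sytl3 and Sytl4 by −0.36 each and Sytl1 by −0.19. Exph5 differed by −0.13 and Unc13d, the priming factor Munc13-4, by 0.11. Adjusted p-values of these genes were 0.235 to 0.67. The other 33 effectors differed by −0.66 to 0.35. Rilp, the Rab7 effector that recruits dynein, had the smallest adjusted p among them, 0.171, with a difference of −0.45, and was picked out after its value was seen.

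**Figure D3:**
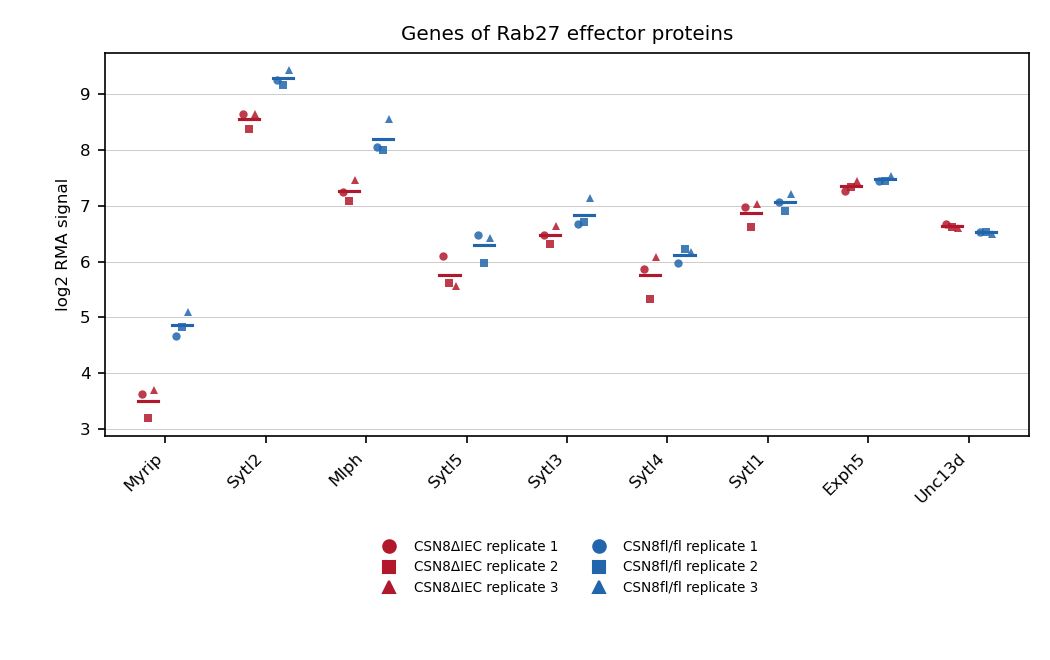
Log2 RMA signal, in each library, of the 9 genes grouped as Rab27 effectors, which leaves out Rph3a and Rph3al. Symbols are by replicate and bars are group means (n = 3), with CSN8ΔIEC left of CSN8fl/fl and genes ordered by p. Myrip, Sytl2 and Mlph, which passed the threshold, stand at the left, with every CSN8ΔIEC value below every CSN8fl/fl value.

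List means of Paneth, goblet and tuft cell markers were lower in the same libraries as Rab27a. The mean of the enteroendocrine markers, also of secretory cells, was not. The lists were chosen with earlier results of these data known, so their counts and means are a description. Over all genes 0.702% fell and 0.374% rose. Of 12 Paneth cell markers 7 fell, Mmp7, Ang4, Mptx2, Clps, Habp2, Nupr1 and Pnliprp2, and 0 rose. The largest differences were those of Pnliprp2 (−3.26) and Clps (−3.11). The mean signal of the 12 was 10.5 to 11.4 in CSN8ΔIEC libraries and 12.4 to 12.5 in CSN8fl/fl libraries. Groups overlapped for Lyz1 and Pla2g2a (−0.51 and −0.27), and Defa17, Defa24 and Itln1 were lower without passing. Of 11 goblet cell markers 5 fell, Clca1, Tff3, Ccl6, Ccl9 and Tpsg1, and 0 rose. Means of the list were 11.0 to 11.2 in CSN8ΔIEC and 11.6 in all 3 CSN8fl/fl libraries. Groups overlapped for Muc2, Zg16, Fcgbp, Agr2 and Spink4 (−0.055, −0.083, −0.13, 0.14 and −0.34), so the list was not uniformly lower. Of 10 tuft cell markers 4 fell and 0 rose, with means of 6.33 to 6.47 in CSN8ΔIEC and 7.53 to 8.95 in CSN8fl/fl, the highest in CSN8fl/fl replicate 3. That library was also the highest for Rab27a, Myrip, Sytl2 and Mlph, and for Rab27b, Rab37, Rab3d, Rab17 and Rab5a, but not for Rab8a. It was the highest for the Paneth (12.55), goblet (11.64), enterocyte (12.98) and T cell (8.45) lists as well, but the lowest for the enteroendocrine list (8.12). Of 10 enteroendocrine markers 2 rose, the peptide hormone genes Cck (0.79, adjusted p = 0.0487) and Tac1 (1.41, adjusted p = 0.0167), and 1 fell, the somatostatin gene Sst (−1.10, adjusted p = 0.0164). Their mean was 8.23 to 8.40 in CSN8ΔIEC and 8.12 to 8.23 in CSN8fl/fl, and 4 of them had every CSN8ΔIEC value above, and 3 below, the CSN8fl/fl values. No marker of these 4 lists was dim. Of 10 enterocyte markers 0 passed, with means of 12.4 to 12.9 in CSN8ΔIEC and 12.6 to 13.0 in CSN8fl/fl and a median difference of −0.067. In 1 of them, Alpi, every CSN8ΔIEC value lay below every CSN8fl/fl value (−1.08, adjusted p = 0.0681), and in 0 above. Lct differed by −0.62 with overlapping groups (adjusted p = 0.314). In RNA of whole crypts, fewer cells of a type and less RNA per cell cannot be told apart, and the part of these cell types in the lower signals of Rab27a and its effectors was not tested.

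**Figure D4:**
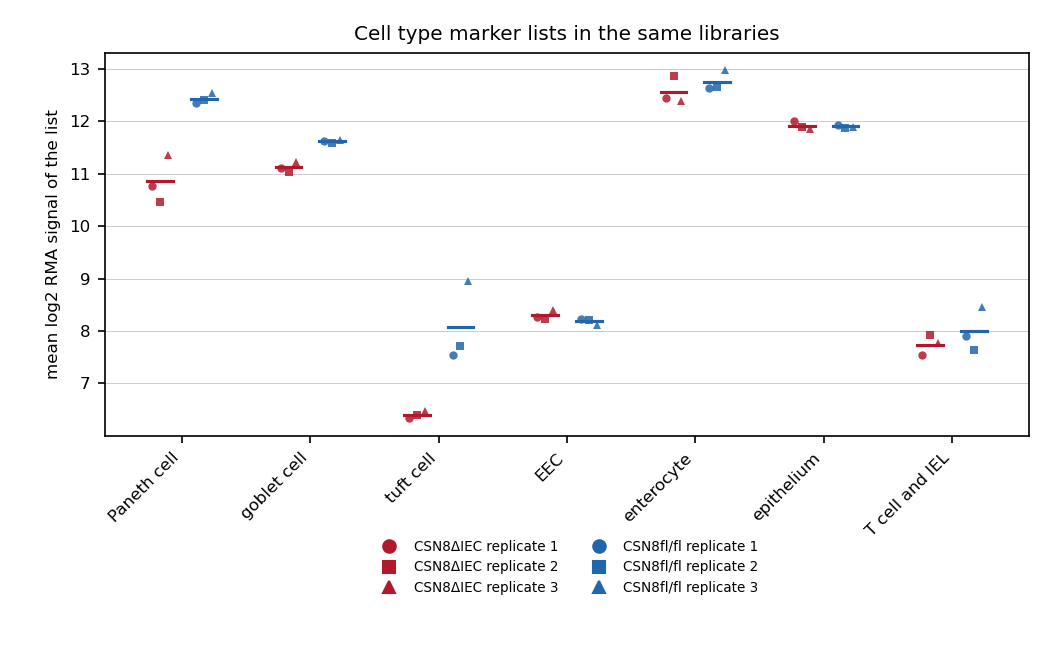
Mean log2 RMA signal of 7 cell type marker lists in each library (symbols by replicate; bars are group means, n = 3), CSN8ΔIEC left of CSN8fl/fl; EEC, enteroendocrine cell and IEL, intraepithelial lymphocyte. The Paneth, goblet and tuft cell lists have every CSN8ΔIEC library below every CSN8fl/fl library, the enteroendocrine list lies slightly higher in CSN8ΔIEC (8.23 to 8.40, against 8.12 to 8.23), and the enterocyte, epithelium and T cell lists overlap.

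None of the 14 Rabs of the ER and Golgi passed the threshold, and all 14 had overlapping groups, with a median difference of −0.030 and adjusted p-values of 0.697 to 0.992. Rab1a, which tethers ER-derived vesicles at the Golgi, read 12.20, 12.27 and 12.06 in CSN8ΔIEC crypts, against 12.28, 12.27 and 12.30 in CSN8fl/fl crypts. Rab2a, also of ER to Golgi traffic, and Rab6a, of retrograde traffic at the Golgi, differed by 0.011 and −0.092. Over these 3 genes the 95% intervals reached −0.37 at the lowest and 0.27 at the highest. Rab18, of lipid droplets and the ER, had a difference of 0.0034 ± 0.12. The remaining members lay between −0.13 for Rab43 and 0.11 for Rab39b, except Rab30, a Golgi Rab that varied most: it read 6.20, 7.48 and 5.97 in CSN8ΔIEC crypts, against 7.39, 6.18 and 6.54 in CSN8fl/fl crypts. Its libraries spread widely within both genotypes, and its interval of −1.08 to 0.78 bounded no more than a 2.12-fold change.

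The recycling Rabs were led by Rab17, an epithelial Rab of apical recycling and transcytosis. Rab17 read 8.85, 8.98 and 8.68 in CSN8ΔIEC crypts, against 9.19, 9.38 and 9.41 in CSN8fl/fl crypts. Every CSN8ΔIEC value was lower, and the difference of −0.49 ± 0.13 did not pass (adjusted p = 0.127). In the RefSeq gene order of GRCm38.p6, 1 protein-coding gene, Prlh, lies between Rab17 and Mlph on chromosome 1. The Rab11 group, which runs apical recycling endosomes in enterocytes, had overlapping groups throughout. Rab11a read 9.93, 9.90 and 9.77 in CSN8ΔIEC crypts, against 9.86, 9.66 and 10.07 in CSN8fl/fl crypts, with an interval of −0.31 to 0.31. Rab25, its epithelial relative, differed by 0.10 and Rab11b by −0.10 (adjusted p = 0.765 and 0.74). Rab4a, of fast recycling, differed by 0.035, Rab14 by −0.087, Rab15 by −0.21 and Rab35 by −0.0030, with adjusted p-values of 0.553 to 0.993.

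At the early endosome Rab5a, which drives endosome fusion, varied little within each genotype. It read 10.98, 11.01 and 10.99 in CSN8ΔIEC crypts, against 11.16, 11.18 and 11.23 in CSN8fl/fl crypts. Its groups did not overlap, but the moderated test did not call so small a difference, −0.20 ± 0.11 (adjusted p = 0.421). Rab5b and Rab5c, which share its function, both differed by −0.12 (adjusted p = 0.745 and 0.695) with overlapping groups. Rab20, Rab21 and Rab22a differed by −0.24, −0.023 and −0.081. Rab31, of traffic between Golgi and endosomes, read 7.54, 7.93 and 7.67 in CSN8ΔIEC crypts, against 7.56, 7.06 and 8.29 in CSN8fl/fl crypts, with both the lowest and the highest value among the CSN8fl/fl libraries. The median of the 7 genes was −0.12.

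On the route to the lysosome the most separated gene was Rab12, which directs transferrin receptor from recycling endosomes to degradation. Rab12 read 7.63, 7.33 and 7.45 in CSN8ΔIEC crypts, against 6.87, 7.11 and 6.95 in CSN8fl/fl crypts. It was higher in every CSN8ΔIEC library, by 0.49 ± 0.13 or 1.41-fold, and this did not pass (adjusted p = 0.123). It was the largest upward difference of the family and was as large between the libraries labelled female, 0.49, as between those labelled male, 0.50. Rab7, the main Rab of late endosomes and lysosomes, read 12.47, 12.58 and 12.53 in CSN8ΔIEC crypts, against 12.43, 12.41 and 12.38 in CSN8fl/fl crypts. These groups did not overlap either, and the difference was 0.12 ± 0.11 (adjusted p = 0.648). Rab9, of late endosome to Golgi transport, and Rab24, linked to autophagy, differed by −0.046 and 0.060. Rab29, of the Golgi and stressed lysosomes, differed by 0.17 and Rab32, of lysosome-related organelles, by −0.28 (adjusted p = 0.629 and 0.587). The dim members Rab7b, Rab9b, Rab34 and Rab38 lay between −0.30 and −0.051. Over the 11 genes the median was −0.051, and 0.060 once dim probe sets were left out.

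Rab42 differed in opposite directions between the labelled classes of mice, at 4.68 and 5.09 in CSN8ΔIEC against 5.98 and 5.59 in CSN8fl/fl in the libraries labelled female, and at 5.54 in CSN8ΔIEC against 5.08 in CSN8fl/fl in those labelled male. A model with an interaction of genotype and labelled sex and age took its spread from the 4 libraries labelled female. In it 0 of 19505 genes passed (0%) after adjustment by limma, and 10.1% had an unadjusted p under 0.05. The 3 Rab genes at that level, Rab42, Rab3c and Rab31, are 5.36% of the family, with adjusted p-values of 0.421, 0.421 and 0.452.

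**Figure D5:**
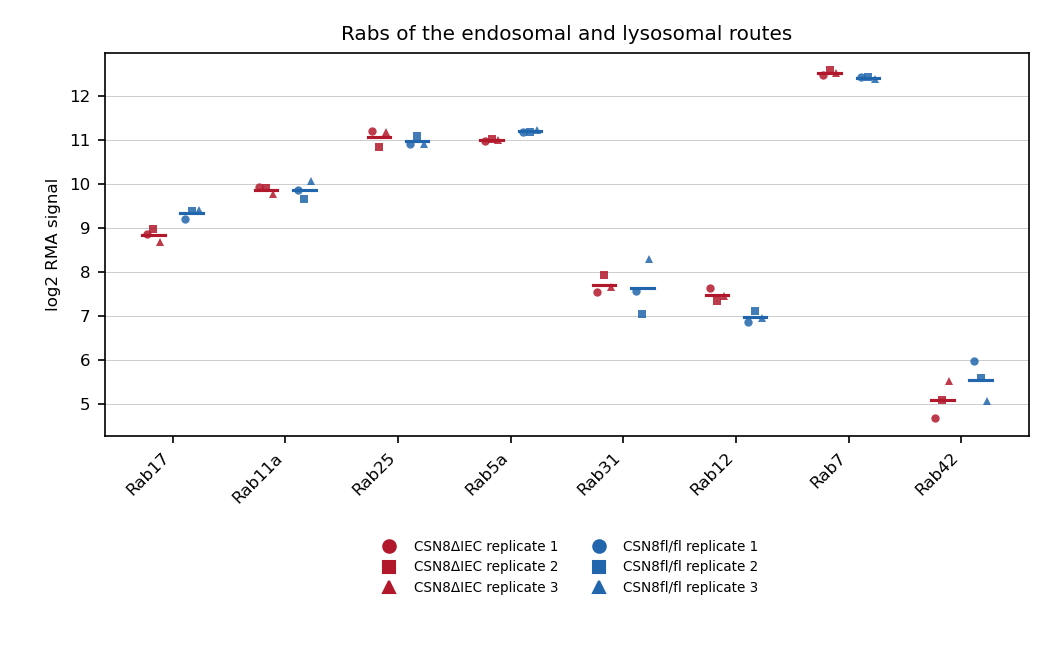
Log2 RMA signal of 8 Rabs of recycling (Rab17, Rab11a, Rab25), early endosomes (Rab5a, Rab31) and the late endosomal and lysosomal route (Rab12, Rab7, Rab42) in each library (symbols by replicate; bars are group means, n = 3), CSN8ΔIEC left of CSN8fl/fl. Every CSN8ΔIEC value lies below the CSN8fl/fl values for Rab17 and Rab5a and above them for Rab12 and Rab7, none past the threshold, and the other 4 overlap.

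The last class joined Rab23, which restrains Hedgehog signalling, and the cilium-associated Rab28 with Rab40b and Rab40c, which carry a SOCS box and act as substrate adaptors of cullin 5 ligases, a class of enzymes that the COP9 signalosome acts on. Rab40b read 7.31, 7.28 and 7.56 in CSN8ΔIEC crypts, against 7.28, 7.17 and 7.59 in CSN8fl/fl crypts. Rab40c read 7.69, 7.55 and 7.73 in CSN8ΔIEC crypts, against 7.38, 7.88 and 7.53 in CSN8fl/fl crypts. Both overlapped, with differences of 0.037 (95% interval −0.30 to 0.37) for Rab40b and 0.062 (−0.28 to 0.40) for Rab40c. Rab23 read 6.61, 6.51 and 6.83 in CSN8ΔIEC crypts, against 6.64, 6.19 and 6.02 in CSN8fl/fl crypts, and its difference of 0.37 ± 0.18 did not pass (adjusted p = 0.372). Rab28 differed by 0.017.

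The regulators of the cycle gave 0 calls among 30 GEFs, 32 GAPs and 6 escort, prenylation and GDP dissociation inhibitor genes, against 1.08% of all genes. Rin3, a GEF of the Rab5 group, read 7.92, 7.63 and 7.55 in CSN8ΔIEC crypts, against 7.29, 6.73 and 7.07 in CSN8fl/fl crypts. It was higher in every CSN8ΔIEC library, with a difference of 0.67 ± 0.17 (adjusted p = 0.114). The other GEFs with the smallest p were Dennd4a, at 0.38, and Dennd6a, at −0.26 (both adjusted p = 0.324). Among the GAPs, Tbc1d4, which acts on Rab10 and its relatives in glucose transporter traffic, differed by 0.77 ± 0.23 (adjusted p = 0.168), or by 0.48 without CSN8fl/fl replicate 3, and Tbc1d13 and Tbc1d30 by −0.43 and −0.41 (adjusted p = 0.172 and 0.195). The handling factors Rabac1, Chml and Chm differed by −0.19, 0.27 and −0.11, with adjusted p-values of 0.48 to 0.729.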

How the data were processed

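The deposited table holds log2 signals, 1 column per array, which the authors made with RMA and Partek 6.6, per the submitters' processing notes. RMA corrects background, quantile-normalises the arrays and summarises the probes of each probe set, so values are comparable between arrays. Its settings and the genome build are not given in the sources used. Of 22206 probe sets, 19572 had 1 gene symbol in the platform annotation, 0 had several and 2634 are unnamed here. The brightest probe set stood for each of the 55 genes with several, which left 19505 genes. All 56 Rab symbols matched the RefSeq gene table (GRCm38.p6) by gene ID. Arrays have no read depth, and their number limits the precision.

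Genotypes were compared across all genes with limma 3.58.1 in R 4.3.3 (functions lmFit and then eBayes, with 8.85 degrees of freedom after moderation), with Benjamini-Hochberg adjustment over all genes and two-sided p-values. The script was tested on simulated data. The members, classes and gene lists were chosen with earlier results of these data known, and the motifs and the Rab27 effector group after the values were seen. Genes described with values were those past the threshold, the 4 with the smallest p in each Rab class, up to 4 per class whose groups did not overlap, and the 3 with the smallest p in each regulator class; other members are named where a class is accounted for. Alternatives varied the filter, scaling, prior, weights, covariates and libraries. Rab genes of the lists that no named probe set measured were not analysed here. Rab paralogues are similar in sequence, and cross-hybridisation between them was not assessed.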

Additional observations from a re-analysis of the deposited data

How the results depend on the processing

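Each result was recomputed under 16 other settings. Rab27a stayed lower under all 16 and passed under 9; it did not pass in the libraries labelled female alone (−0.74, adjusted p = 0.0961) or with any 1 library left out. Over the 6 fits that left out 1 library, the count of Rab genes past the threshold, 1 with all libraries, was 0, that of Rab cycle genes, 3 with all, was 0 to 1, that of all genes, 210 with all, was 41 to 228 (16 to 88 that rose, 25 to 140 that fell), and the Rab median lay between −0.097 and −0.028. Fewer samples enter those fits. In the libraries labelled female alone, 0 Rab genes, 1 Rab cycle gene and 97 genes in all (21 rose, 76 fell) passed. With arrays centred on their medians 1 Rab cycle gene passed, and with a trended, robust prior 114 genes rose. Same-numbered samples have the same labelled sex and age, which sets replicate 3 apart from 1 and 2 in both genotypes, but the labels name no other link, and their deviations from the group means correlated at 0.12, −0.024 and 0.038. With the replicate block, Rab27a passed and 2 Rab cycle genes did, Sytl2 being lost (adjusted p = 0.0578). Myrip was left out by the filter on dim probe sets.

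Differences near 0 changed sign: Rab28 with array weights (−0.0039), and Rab40c (−0.0091), Rab5b (0.036) and Rab39b (−0.0038) in the libraries labelled female. With 1 library left out, Rab28 ranged from −0.015 to 0.042, Rab40b from −0.052 to 0.16, Rab40c from −0.047 to 0.20 and Rab43 from −0.26 to 0.057. These 6 genes passed in none of the 16 settings. Mlph also did not pass after a further quantile normalisation (adjusted p = 0.0599). The interaction with labelled sex and age gave 0 genes under all 5 other settings tried.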
